A study of Mus musculus with 12 samples.

Results

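The globin genes of the mouse were followed in 8 lists of histone peaks from Ints11 conditional knockout (KO) and wild-type (WT) bone marrow progenitors. The 7 genes were chosen by name, out of 21779 protein-coding genes of the annotation: Hba-x, Hba-a1 and Hba-a2 of the alpha cluster, and Hbb-y, Hbb-bh1, Hbb-bs and Hbb-bt of the beta cluster. All 7 were found in the annotation, and all were kept whether or not a peak was present. Peaks of both marks were read over each gene and over both clusters with 50 kb on each side.

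The KO mice carried floxed Ints11 alleles and the Mx1Cre transgene, in which the recombinase is driven by the interferon-responsive Mx1 promoter, and 2 of them, KO_399 and KO_401, gave a library of each mark. Their reference was 2 WT littermates, WT_407 and WT_409, named like the KO mice by the numbers in the labels. All mice were C57BL/6 and all had received poly(I:C), an inducer of interferon, 4 days before their cKit+ bone marrow cells were sorted, and the series design adds that the cells were lineage-negative. No age is given in the sources used here, and the peak lists do not measure the deletion itself. The marks were H3K27me3, which Polycomb complexes place on silenced genes, and H3K4me3, which marks active or poised promoters.

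Hemoglobin is a tetramer of alpha-like and beta-like globin chains around heme. The alpha and beta clusters lie on different chromosomes, and in each the embryonic genes are followed by adult genes. Distant enhancers drive them to very high expression as erythroid precursors mature: those of the alpha cluster lie in and near introns of the neighbouring gene Nprl3, and those of the beta cluster form a locus control region upstream of Hbb-y. Multipotent progenitors hold these genes mostly silent. In human cells the silent alpha genes are known targets of Polycomb, whereas the beta cluster lies in closed, late-replicating chromatin among olfactory receptor genes.

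The promoters of the adult genes are shown because the peaks lay on these genes and because the copies differ in how far reads can be placed on them. The sequences are the 250 bases before each gene's start, from RefSeq (GRCm38.p6, the coordinates of mm10), on the strand of the gene. Those of Hba-a1 (chr11:32283422-32283671) and Hba-a2 (chr11:32296242-32296491) lie on the plus strand, and those of Hbb-bs (chr7:103827929-103828178) and Hbb-bt (chr7:103813924-103814173) on the minus strand. Capitals mark the letters GATAA (bound by GATA factors), CACCC (bound by KLF factors), CCAAT and TATAA, on either strand.
Hba-a1: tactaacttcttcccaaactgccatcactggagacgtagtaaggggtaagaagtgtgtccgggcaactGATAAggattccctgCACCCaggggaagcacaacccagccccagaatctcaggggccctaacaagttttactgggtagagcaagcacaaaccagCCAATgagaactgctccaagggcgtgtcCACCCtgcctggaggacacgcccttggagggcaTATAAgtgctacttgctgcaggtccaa
Hba-a2: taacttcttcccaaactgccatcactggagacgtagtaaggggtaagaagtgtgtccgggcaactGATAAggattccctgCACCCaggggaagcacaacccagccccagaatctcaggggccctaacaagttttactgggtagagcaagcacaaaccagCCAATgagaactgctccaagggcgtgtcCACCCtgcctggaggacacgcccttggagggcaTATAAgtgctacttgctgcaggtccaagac
Hbb-bs: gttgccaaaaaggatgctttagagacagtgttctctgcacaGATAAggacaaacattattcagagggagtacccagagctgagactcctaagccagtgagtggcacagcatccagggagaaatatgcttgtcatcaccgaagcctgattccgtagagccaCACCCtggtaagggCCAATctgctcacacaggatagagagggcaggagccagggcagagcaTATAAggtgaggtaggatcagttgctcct
Hbb-bt: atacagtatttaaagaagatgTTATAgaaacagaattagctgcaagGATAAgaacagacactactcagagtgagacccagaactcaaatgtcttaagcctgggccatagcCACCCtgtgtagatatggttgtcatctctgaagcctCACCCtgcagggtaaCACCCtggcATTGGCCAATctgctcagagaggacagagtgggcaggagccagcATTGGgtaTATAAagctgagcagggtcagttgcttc
The Hba-a1 and Hba-a2 promoters were identical over 247 aligned bases, the windows being offset because the annotated starts differ. Of 176 stretches of 75 bases, the read length, 173 in the Hba-a2 window were also in that of Hba-a1, so reads there cannot be assigned to either copy. Hbb-bs and Hbb-bt had 178 identical bases of 243 aligned (73.3%) and shared no stretch of 75 bases. Each adult promoter held a match to all 4 motifs, with 1 GATAA match in each and no letter shared between matches. Among 32851 windows of the same length, 22.6% held GATAA, 52% CACCC, 33.8% CCAAT and 22.8% TATAA, so single matches are frequent. The observed over expected ratio of CpG was 0.22 at Hba-a1, 0.216 at Hba-a2, 0.126 at Hbb-bs and 0 at Hbb-bt. All lay below the median of 0.374 over all windows, at the 32.5th, 32.1st, 18.6th and 0th percentile in that order. Windows were matched for 6 of the 7 genes.

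Over the adult alpha genes, H3K27me3 was listed in neither KO mouse and in both WT mice, and H3K4me3 was listed in WT_409 alone. Over the adult beta genes no library had a listed H3K27me3 peak, and H3K4me3 was again listed in WT_409 alone. The embryonic genes Hba-x, Hbb-y and Hbb-bh1 had neither mark in any of the 8 lists. No globin gene had either mark in KO only, and none had a mark in all 4 libraries.

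A gene was counted as marked when a listed peak covered at least 1 bp of its span or of the 2 kb on either side. By that rule H3K27me3 was WT only, meaning in neither KO and both WT lists, at 2 of the 7 genes, and at 2.19% of all protein-coding genes (477 of 21779). The count of 2 became 0 with a fold of at least 8, and also with the lists cut to an equal number of peaks or to an equal covered length. It was 1 with a 5 kb window. H3K27me3 was in none of the 4 libraries at the other 5 globin genes, as at 72.7% of all genes. No globin gene had H3K27me3 in KO only, nor did any other gene (0%), and none had it in all 4 libraries, against 17.6% of all genes. None had it in a single library, which over all genes was the case for 0.00459% in KO_399, 0.0643% in KO_401, 1.66% in WT_407 and 1.55% in WT_409.

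H3K4me3 was in WT_409 alone at 4 of the 7 globin genes, and at 0.363% of all genes (79). The remaining 3 had no H3K4me3, as did 32.1% of all genes. None had it in KO only or in WT only, which over all genes were 0.271% and 0.119%. None had it in another single library, where all genes gave 1.18% for KO_399, 0.0735% for KO_401 and 0.358% for WT_407. Presence in 1 H3K4me3 library was thus rare in every mouse, and among the globin genes it was found in WT_409. In this count Hba-a1 and Hba-a2 may not be independent observations, because reads in their promoters cannot be assigned to either copy.

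Hba-a1 (chr11:32283672-32284486) encodes an adult alpha chain. In the 2 kb window its H3K27me3 covered no bases in KO_399 and KO_401, against 1396 bp in WT_407 and 696 bp in WT_409. The genotypes did not overlap. Within 5 kb, both KO values lay below both WT values at 20.9% of all genes and 70% of those with any listed H3K27me3. The difference at Hba-a1 had the smallest p that 2 against 2 mice allow (exact permutation p = 0.333, two-sided). That design cannot reach 0.05, and the spread between the WT mice was 495 bp (SD, n = 2) around a mean of 1046 bp. Fewer cells carrying a mark and less of the mark per cell cannot be told apart in such bulk samples.

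Hba-a2 (chr11:32296492-32297310), the second adult alpha copy, had no H3K27me3 in KO_399 and KO_401, against 1514 bp in WT_407 and 617 bp in WT_409. It followed Hba-a1 in every library, with the wider domain in WT_407 (exact permutation p = 0.333, two-sided, n = 2 each). Reads in their promoters cannot be assigned to either copy, and the likeness of the gene bodies was not tested. The copies may thus not be independent observations. The H3K27me3 summits lay in the gene bodies, except that of Hba-a1 in WT_407, 917 bp past the start of this 815 bp gene.

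Between them lies Hbq1b (chr11:32286964-32287912), a theta globin gene that is no member of the chosen set. Its H3K27me3 peak was 955 bp wide in KO_401 and absent from KO_399, against 935 bp in WT_407 and 959 bp in WT_409. The width in KO_401 lay between those of the WT mice, and KO_399 lacked the peak. Hbq1a, the theta gene beyond Hba-a2, had none in KO_399 and KO_401, against 417 bp in WT_407 and none in WT_409. Within 5 kb the values of Hba-a1 take in the Hbq1b peak and became 0 and 955 bp in KO_399 and KO_401, against 2331 and 1655 bp in WT_407 and WT_409. The KO minus WT difference of -1516 bp at Hba-a1 with this window turned to 129.5 bp with an equal number of peaks. The sole KO peak in this window was that of Hbq1b in KO_401, so the positive value rests on Hbq1b. With this window 2 of the 7 globin genes had less H3K27me3 in each KO library than in each WT library, as did 20.9% of all genes and 70% of the genes with any listed H3K27me3. None of the 7 had more, against 0.00459% of all genes, and none had its highest value in WT_409, against 12.9%. Lower values in both KO lists were thus common among genes with this mark.

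**Figure D1:**
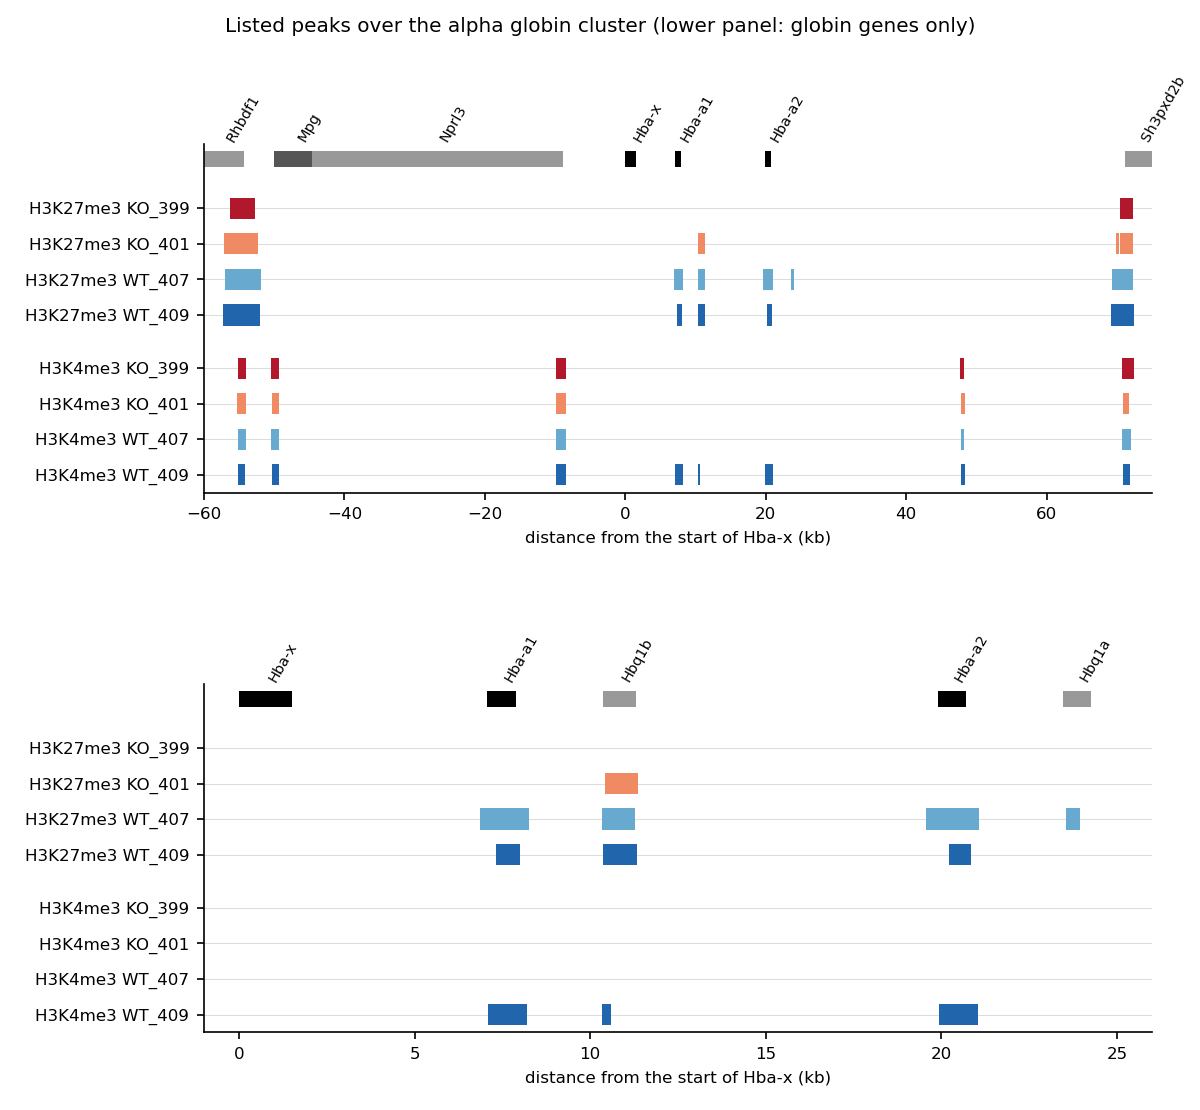
Listed peaks over the alpha globin cluster in each library, with the distance from the start of Hba-x in kb on the x axis, H3K27me3 rows above H3K4me3 rows and genes drawn at the top (globin members in black). The lower panel enlarges the globin genes: H3K27me3 bars stand over Hba-a1 and Hba-a2 in WT_407 and WT_409, a single KO bar stands over Hbq1b in KO_401, and H3K4me3 bars over globin genes are in WT_409.

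From the first to the last alpha member, a span of 20711 bp, H3K27me3 covered 0 bp in KO_399 and 955 bp in KO_401, against 3478 bp in WT_407 and 2136 bp in WT_409. With 50 kb on each side it covered 320 and 1690 bp in KO_399 and KO_401, against 5714 and 3855 bp in WT_407 and WT_409. The KO mean was 1005 ± 969 bp and the WT mean 4785 ± 1315 bp (SD, n = 2 each), a difference of -3780 bp (exact permutation p = 0.333, two-sided). The genotypes did not overlap. Within 5 kb of a gene, KO values were likewise below WT values at 70% of genes with any listed H3K27me3. With the lists cut to the same covered length in each library the difference in the alpha window turned to 316 bp. Within 5 kb of Hba-a1 and of Hba-a2 it was 0 bp with this cut, so the 316 bp lay elsewhere in the window. The lists of both KO mice covered less of the genome in all, 15.2 and 23.1 Mb in KO_399 and KO_401 against 34.5 and 31.5 Mb in WT_407 and WT_409, and the part of this in the globin values was not tested.

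The peaks over the alpha genes were weak. By the authors' −log10 q, the strongest peak at Hba-a1 stood at the 28.9th percentile of the WT_407 list and the 37.0th of the WT_409 list. That of Hba-a2 stood at the 43.2nd percentile in WT_407 and the 18.5th in WT_409. When the genes with H3K27me3 in both WT lists were ordered by the mean of these percentiles and cut into 4 classes of about equal size, both fell in the weakest class. In that class 35.1% of genes were WT only, against 1.41%, 0.156% and 0.704% in the stronger classes. In contrast, the H3K27me3 domain at the start of Rhbdf1, 52 to 57 kb upstream of Hba-x and just beyond the window, was listed in all 4 libraries. It was 3557 and 4866 bp wide in KO_399 and KO_401, against 5013 and 5277 bp in WT_407 and WT_409. Another domain, at the start of Sh3pxd2b at the far edge of the window, was also in all 4 libraries. It spanned 1944 bp in KO_399 and 2 pieces of 423 and 1852 bp in KO_401, against 3037 bp in WT_407 and 3358 bp in WT_409.

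The reads at each summit could be recovered from the deposited fold and p-value. At Hba-a1 there were 23 reads in WT_407 (95% Poisson interval 14.6 to 34.5) and 27 in WT_409 (17.8 to 39.3). At Hba-a2 there were 26 in WT_407 (17 to 38.1) and 22 in WT_409 (13.8 to 33.3). Every listed peak had a fold above 5, which at the usual background of a library needed 20.5 reads in KO_399 and 22.4 in KO_401, against 19.5 in WT_407 and 19.8 in WT_409. The WT peaks thus stood a few reads above that limit, and each interval reached below it. Intervals cover counting error only.

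The numbers in the peak names run along each chromosome, so a skipped number was taken as a called peak left out of the list. In KO_399, 3 numbers were skipped between the domains at Rhbdf1 and Sh3pxd2b, a stretch of 123 kb that holds all alpha globin genes. In KO_401, 2 were skipped between Rhbdf1 and Hbq1b, a gap that holds Hba-a1, and 2 between Hbq1b and Sh3pxd2b, a gap that holds Hba-a2. In WT_407, 5 were skipped before Hba-a1 and 5 beyond it, and in WT_409 1 was skipped, beyond Hba-a2. The names do not say where in a gap these peaks lay. H3K27me3 below the listed fold at Hba-a1 or Hba-a2 in KO mice therefore cannot be told apart from its absence.

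**Figure D2:**
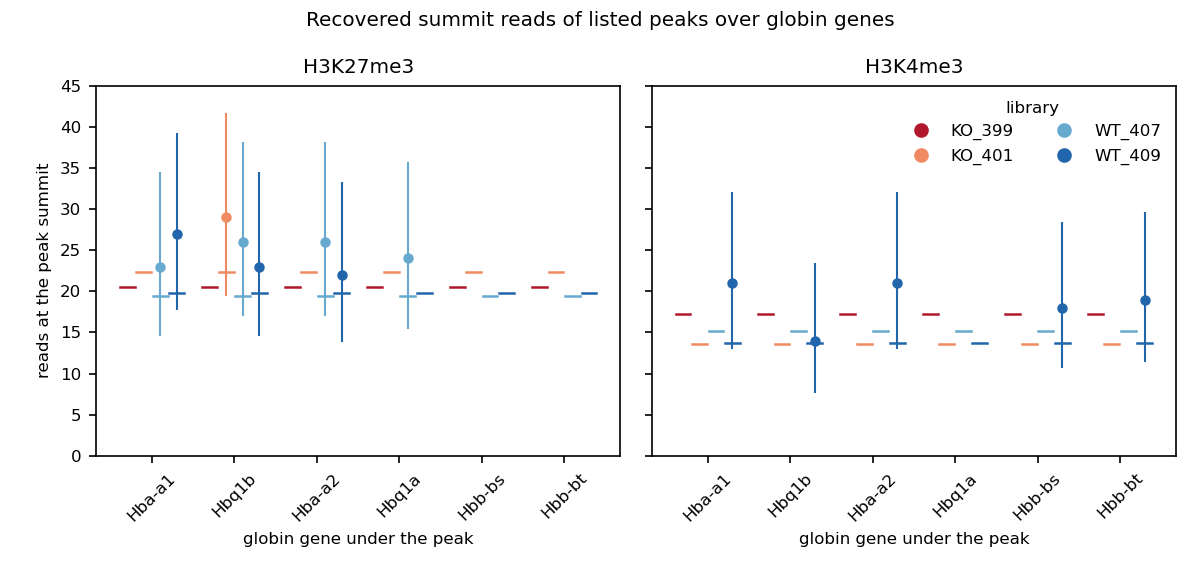
Reads at the summit of each listed peak over a globin gene (points, with 95% Poisson intervals) by gene and library, for H3K27me3 on the left and H3K4me3 on the right. Short horizontal lines give the reads that a fold of 5 needed in each library at its usual background, shown also where no peak was listed. The WT H3K27me3 points at Hba-a1 and Hba-a2 lie between 22 and 27 reads and the WT_409 H3K4me3 points at the 4 members between 18 and 21.

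H3K4me3 at the adult alpha genes was listed in a single library. Hba-a1 had no H3K4me3 in KO_399, KO_401 and WT_407, and a peak of 1114 bp in WT_409. Hba-a2 had none in these 3 libraries either, and a peak of 1118 bp in WT_409. The WT_409 peaks over the copies had the same deposited fold of 7.47 and 21 summit reads each (95% Poisson interval 13 to 32.1), where 13.7 were needed. At its usual background a fold of 5 needed 17.25 reads in KO_399, 13.65 in KO_401 and 15.15 in WT_407. In WT_409 Hbq1b had a further peak of 266 bp with 14 reads (7.65 to 23.5), near the bottom of its list. All 3 began close to the annotated start and ran into the gene, with a summit 411 bp into Hba-a1 and at nearly the same place in Hba-a2.

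In the other 3 libraries no peak number was skipped between the H3K4me3 peak of Nprl3 and the next listed peak beyond the globin genes. By this reading no weaker H3K4me3 peak was called over the alpha genes in KO_399, KO_401 or WT_407. This differs from H3K27me3, where numbers were skipped in both KO libraries. The genotypes cannot be set apart here, since WT_407 was like the KO mice. Over the cluster with its flanks H3K4me3 covered 2747 ± 82.0 bp in KO and 3863 ± 1804 bp in WT (SD, n = 2 each, exact permutation p = 1, two-sided), a difference of -1116 bp that became 160 bp without WT_409.

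WT_409 was also the sole mouse with both marks on the adult alpha genes. At Hba-a2 all 617 bp of its H3K27me3 lay under its H3K4me3 peak of 1118 bp. Within 5 kb of Hba-a1, 915 of its 1655 bp of H3K27me3 were shared with H3K4me3. Whether the marks were on the same alleles or in different cells of the sort cannot be told apart in these libraries. Of 21779 genes, 3 (0.0138%) had H3K27me3 in WT only together with H3K4me3 in WT_409 alone. They were Hba-a1, Hba-a2 and Slc4a1, which encodes band 3, the anion exchanger of the red cell membrane. Of these, Hba-a1 and Hba-a2 may not be independent observations.

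Hbb-bs (chr7:103826523-103827928) and Hbb-bt (chr7:103812524-103813923) encode the adult beta chains of this haplotype. Hbb-bt had no H3K4me3 in KO_399, KO_401 and WT_407, and in WT_409 a peak of 1185 bp with 19 summit reads (95% Poisson interval 11.4 to 29.7). Hbb-bs had none in the same 3 libraries, and in WT_409 a peak of 1026 bp with 18 reads (10.7 to 28.4). Both peaks lay inside the annotated genes, with summits 634 bp into Hbb-bt and 569 bp into Hbb-bs. Their folds were 6.79 and 6.46, at the 19.04th and 16.4th percentile of the WT_409 list. The reads needed for a fold of 5 ranged from 13.65 in KO_401 to 17.25 in KO_399.

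These were the sole peaks of either mark within 50 kb of the beta cluster, and also within 100 kb. H3K4me3 covered 0 bp there in KO_399, KO_401 and WT_407, and 2211 bp in WT_409 (KO minus WT -1106 bp, exact permutation p = 1, two-sided, n = 2 each, and 0 bp without WT_409). The nearest listed H3K27me3 peaks lay at least 1570 kb away in each library. Between them 3 and 4 H3K27me3 numbers were skipped in KO_399 and KO_401, against 22 and 6 in WT_407 and WT_409. The names do not say where in these stretches of 3323 to 3586 kb the peaks lay. H3K27me3 below the listed fold at the beta genes therefore cannot be told apart from its absence. In WT_407 no H3K4me3 number was skipped over the 1339 kb between the listed peaks on either side of the cluster. In KO_399, KO_401 and WT_409, 1 was skipped over about 1530 kb. None of the 6 other protein-coding genes in the window had a peak within 2 kb: Olfr64, Olfr66, Olfr67, Olfr68 and Olfr69, which encode olfactory receptors, and Hbb-bh2, another beta-like globin gene.

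**Figure D3:**
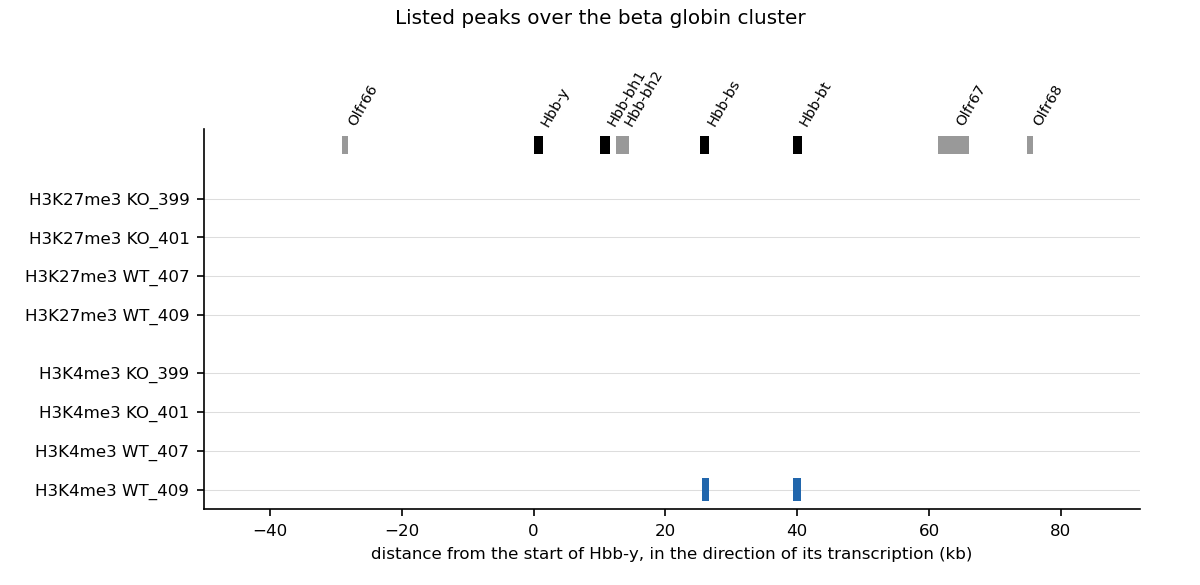
Listed peaks over the beta globin cluster in each library, with the distance from the start of Hbb-y in kb on the x axis, counted in the direction of transcription, and genes drawn at the top (globin members in black). The only bars are the WT_409 H3K4me3 peaks over Hbb-bs and Hbb-bt, 1026 and 1185 bp wide.

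The embryonic genes were bare in every list. Hba-x (chr11:32276600-32278116), the zeta-like gene, had no peak of either mark within 5 kb in any library, although it lies between the strong H3K4me3 peak of Nprl3 and Hba-a1. The same was true of Hbb-y (chr7:103851754-103853207), the epsilon-like gene, and of Hbb-bh1 (chr7:103841638-103843162), an embryonic beta-like gene. Within each cluster the marks of WT_409 were thus listed on the adult genes and on no embryonic one.

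All 4 other protein-coding genes of the alpha window had a peak within 2 kb, in contrast to the beta window. Over all genes, 32.1% had no H3K4me3 and 72.7% no H3K27me3 in any library. For Hbq1a it was the H3K27me3 peak of WT_407 alone. Nprl3, a subunit of the GATOR1 complex that restrains mTORC1, had H3K4me3 at its start in all 4 libraries, ending 8.38 to 8.43 kb upstream of Hba-x. The peak was 1494 and 1428 bp wide in KO_399 and KO_401, against 1443 and 1460 bp in WT_407 and WT_409. Mpg, a DNA glycosylase of base excision repair, had H3K4me3 in all 4 as well. It carried 0 bp of H3K27me3 within 2 kb in both KO libraries, against 159 and 42 bp in WT_407 and WT_409, the edge of the Rhbdf1 domain. A further H3K4me3 peak lay in all 4 libraries outside annotated genes, 27 kb beyond Hba-a2. It was 590 and 587 bp wide in KO_399 and KO_401, with 72 and 41 summit reads, against 471 and 519 bp in WT_407 and WT_409, with 57 and 49 summit reads. H3K4me3 was thus listed on both sides of the alpha genes in every mouse, and its differences in presence lay on the globin genes.

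Genes with the presence pattern of a globin gene were then looked for. For each member, genes with the same presence or absence in all 8 lists were ordered by the mean difference in covered bases within 5 kb over these lists. The presence pattern of Hbb-bs was shared by 47 genes (0.216% of all), Hbb-bt among them. Among the closest were Rhag, the Rh-associated glycoprotein (mean difference 6.63 bp), Hbb-bt (19.9 bp), Kel, the Kell blood group protein (52.8 bp), and AA986860 (57.1 bp). The B cell genes Il7r and Rag1 had the same presence pattern. For Hba-a1 and Hba-a2 the sole others were each other (332 bp) and Slc4a1 (466 bp from Hba-a1 and 301 bp from Hba-a2). Slc4a1 had no H3K27me3 in KO_399 and KO_401, against 4033 bp in WT_407 and 883 bp in WT_409, and 1079 bp of H3K4me3 in WT_409 alone.

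Of 17 genes of the red cell membrane in the annotation, 7 had H3K4me3 within 2 kb in WT_409 alone, against 0.363% of all genes, among them Add2, Aqp1, Epb42, Kel, Rhag and Slc4a1. The other 10 had it in all 4 libraries, unlike any globin member, as did 62.7% of all genes. WT_409 had more covered bases within 5 kb than each other library at 15 of the 17, and at 9.57% of all genes. Aqp1, a water channel, had none in KO_399, KO_401 and WT_407, and 3922 bp in WT_409. Sptb, erythroid beta spectrin, had 1455 and 1305 bp in KO_399 and KO_401, against 1216 bp in WT_407 and 3329 bp in WT_409. Between genotypes, 3 of the 17 genes had less H3K4me3 in each KO library than in each WT library, against 2.53% of all genes and 3.63% of those with any. None of the 17 had more in each KO library, against 15.4% of all genes.

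H3K27me3 at the same 17 genes was in all 4 libraries at 8, WT only at Slc4a1 and in no library at the other 8. Covered bases were lower in each KO library than in each WT library at 9, with a median difference of -433 bp over the list, against 20.9% of all genes with a median of 0 bp, and 70% of the genes with any listed H3K27me3. Ank1, the membrane anchor ankyrin, had 8763 and 11285 bp in KO_399 and KO_401, against 14937 and 13632 bp in WT_407 and WT_409. This domain was listed in every library, unlike those at Hba-a1 and Hba-a2.

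**Figure D4:**
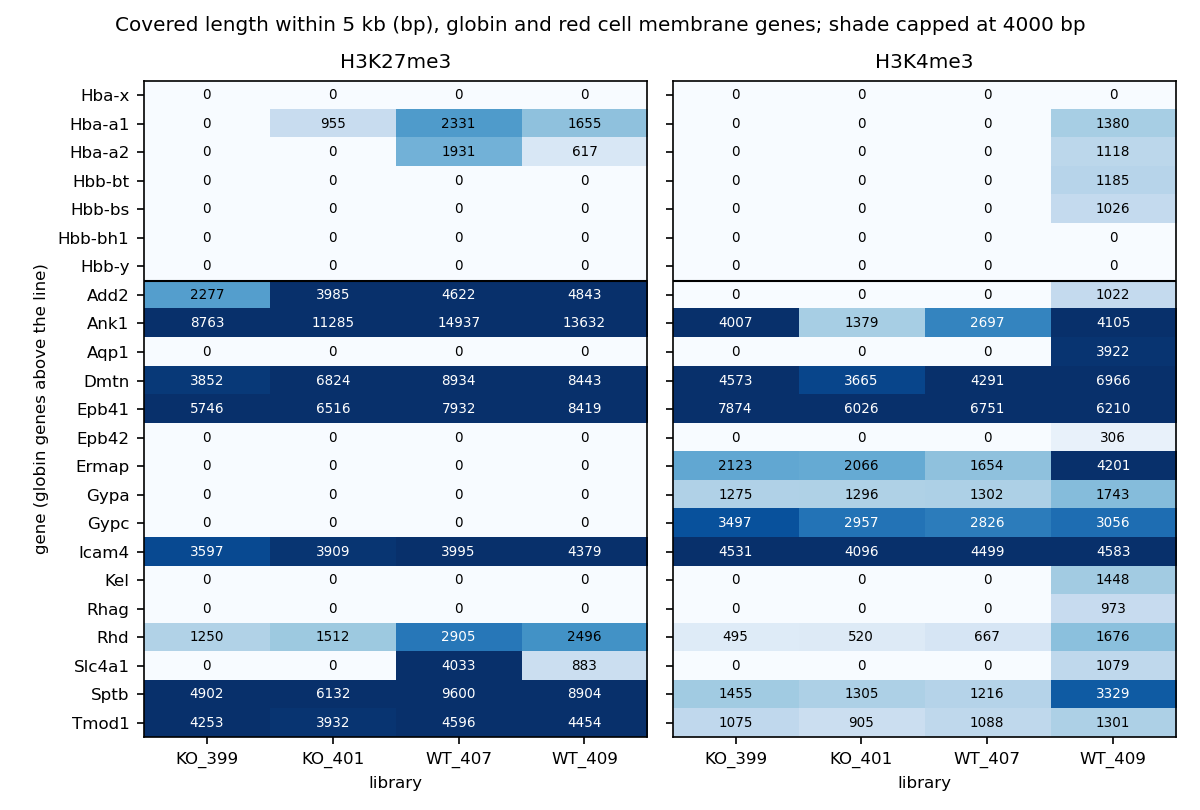
Covered length within 5 kb (bp, printed in each cell, with darker shade for longer cover up to a cap) of the 7 globin members above the line and of red cell membrane genes under it, by library, for H3K27me3 on the left and H3K4me3 on the right. The H3K4me3 column of WT_409 is filled at Hba-a1, Hba-a2, Hbb-bt and Hbb-bs and at membrane genes such as Aqp1, Kel and Rhag, where the other libraries show 0, and the 955 bp of KO_401 at Hba-a1 is the neighbouring Hbq1b peak.

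Of 19 erythroid and globin switch factors, 18 had H3K4me3 in all 4 libraries, as did 62.7% of all genes. Klf1, the erythroid activator of the adult beta gene, had 4138 and 3298 bp in KO_399 and KO_401, against 3334 and 4088 bp in WT_407 and WT_409. Bcl11a, a repressor of embryonic and fetal globin genes, had 12531 and 11806 bp of H3K4me3 in KO_399 and KO_401, against 11462 and 12767 bp in WT_407 and WT_409. Gata1, the master factor of the erythroid lineage, was the exception, with 2235 and 912 bp in KO_399 and KO_401, against 0 bp in WT_407 and 2156 bp in WT_409. None of the 19 was WT only, KO only or in WT_409 alone. H3K27me3 was in all 4 libraries at 6 of them (Bcl11a, Ikzf3, Nfia, Sox6, Tal1 and Zfpm1), against 17.6% of all genes. It was lower in each KO library than in each WT library at 5 of the 19, against 20.9% of all genes and 70% of those with any. Of the 19, 12 had no H3K27me3 within 2 kb in any library.

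H3K4me3 was in all 4 libraries at 11 of 12 heme synthesis genes and at all 10 genes of heme and iron handling, against 62.7% of all genes. WT_409 had the longest cover at 8 of the 12 synthesis genes and at 4 of the 10 handling genes, against 9.57% of all genes. Summed over the synthesis genes it was 49860 and 43797 bp in KO_399 and KO_401, against 43512 and 55324 bp in WT_407 and WT_409. The exception was Alas2, the erythroid first enzyme of the pathway, which had no peak of either mark in any library, WT_409 included. None of the 12 synthesis genes had H3K27me3, against 72.7% of all genes without it, and 1 of the 10 handling genes had it, in all 4 libraries. Of the other globins, Cygb and Ngb, which encode cytoglobin and neuroglobin, had H3K27me3 in all 4. Cygb had 2859 and 3170 bp in KO_399 and KO_401, against 4415 and 3904 bp in WT_407 and WT_409, and Mb, the myoglobin gene, had neither mark.

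Markers of cell types were read by their H3K4me3 within 2 kb, because the globin peaks of this mark were in a single mouse. Of all 21779 genes, 14549 and 13991 had it in KO_399 and KO_401, against 14216 and 14051 in WT_407 and WT_409. Stem and progenitor markers had it at 7 of 8 genes in every library, Kit and Cd34 included. Erythroid markers, of which 5 are also in the red cell membrane list, had it at 4 of 9 genes in KO_399 and KO_401, against 3 in WT_407 and 8 in WT_409, and their summed covered length was 11862 and 8774 bp against 7736 and 15296 bp. B cell markers had it at 6 and 5 of 8 genes in KO_399 and KO_401, against 5 in WT_407 and all 8 in WT_409, with 21914 and 12861 bp against 11964 and 33615 bp. The markers in WT_409 alone included the erythroid Epb42, Rhag and Slc4a1 and the B cell genes Il7r and Rag1. WT_409 thus stood apart at markers of more than a single lineage.

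Granulocyte and monocyte markers had H3K4me3 at 9 of 9 genes in each library, with 58217 and 51473 bp in KO_399 and KO_401, against 45759 and 62492 bp in WT_407 and WT_409. T and NK cell markers had it at 2 of 7 genes in each library, and Cd3e, a defining T cell gene, had none in any library. Megakaryocyte markers had it at 5 of 5 genes in KO_399 and KO_401, against 4 in WT_407 and WT_409. Stromal and endothelial markers had it at 6 and 5 of 6 genes in KO_399 and KO_401, against 5 and 4 in WT_407 and WT_409. The part of other cells in the globin peaks of WT_409 was not tested.

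**Figure D5:**
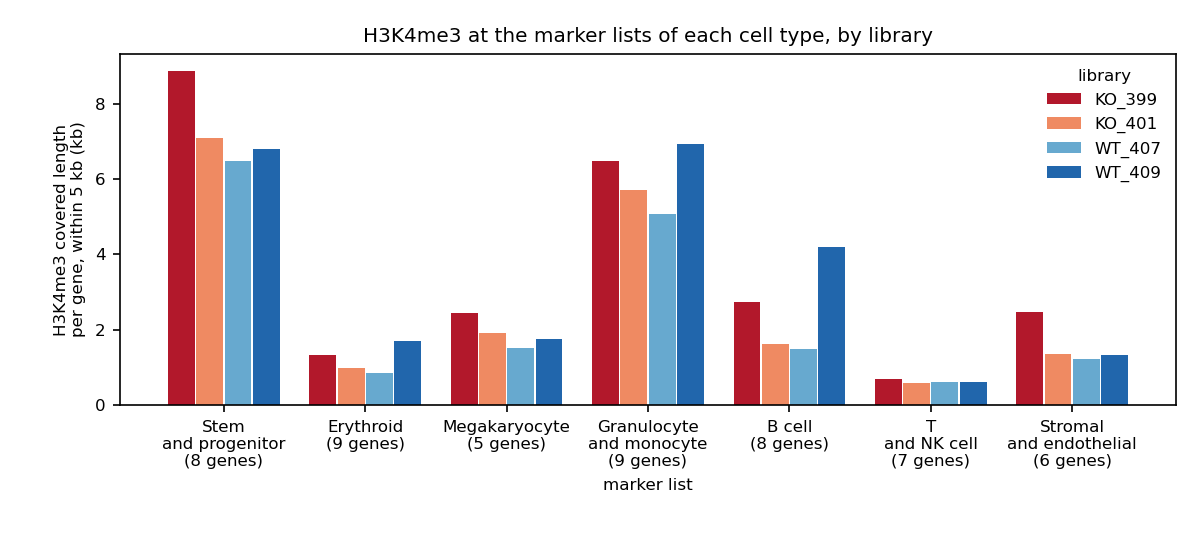
H3K4me3 covered length per gene within 5 kb (kb) at 7 lists of cell type markers, with a bar for each library and no error bars because each bar is a single library. WT_409 is highest at erythroid, B cell and granulocyte and monocyte markers, and KO_399 at the other 4 lists.

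The H3K4me3 libraries differed in usual background, and a lower background lowers the reads that a fold above 5 needs. The usual background, which is proportional to depth at a given fragment length, was 2.65 and 1.93 reads per position in KO_399 and KO_401, against 2.23 and 1.94 in WT_407 and WT_409. The H3K4me3 lists held 27676 and 25090 peaks in KO_399 and KO_401, against 25145 and 26279 in WT_407 and WT_409. They covered 44.5 and 36.7 Mb in KO_399 and KO_401, against 37.0 and 38.6 Mb in WT_407 and WT_409. For H3K27me3 the background was 3.30 and 3.67 reads in KO_399 and KO_401, against 3.09 and 3.15 in WT_407 and WT_409. Read totals are unknown. The part of depth in the missing KO peaks and in the H3K4me3 peaks of WT_409 was not tested.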

How the data were processed

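Peaks of H3K27me3 and H3K4me3 came from 8 libraries, with 2 KO and 2 WT mice per mark, and the 4 input libraries had no file used here. The submitters' processing notes name mm10 and, with no version, MACS2, Bowtie2, deepTools, SAMtools, FastQC and Trim Galore. Their settings, and whether input served as control, are not given in the sources used here. Per the labels, formaldehyde-fixed chromatin was sheared to fragments of 100 to 300 bp, of which 75 bp were read. Each deposited list gives per peak a whole-number score, the fold (a ratio of summit pileup to expected background), and −log10 values of p and q. These are the authors' values, and they describe or rank peaks within a list. All deposited folds were above 5 and peak numbers were skipped, so the lists were filtered after calling, which no label records; whether the fold alone decided it is not given.

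Summit reads were solved from the deposited fold, taken as (reads + 1) / (background + 1), and the Poisson −log10 p, within 0.001 of −log10 p for 100% of summits. Depth is known only through the background, 1.93 to 3.67 reads per position. Read totals are unknown. Gene spans came from RefSeq GRCm38.p6, without 121 genes that lie off chromosomes 1 to 19, X and Y or, outside Y, start in the first 3 Mb, where alternate loci are placed. Ahsp and Hbb-bh0 were not among the genes used. Covered bases, presence and exact permutation tests (SciPy 1.17.1, NumPy 2.4.6, pandas 2.3.3, Python 3.11.15) were computed per library, after a check on simulated data. With 2 mice per genotype and 6 labelings no p can fall under 0.333. The members, gene lists and tests were chosen with earlier results of these data known. All members were named, pathway genes when WT only, KO only or with H3K4me3 in 1 library, and similar genes by presence in all 8 lists; other pathway genes were picked as examples after their values were seen. Some genes counted in the lists are not reported here by name.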

Additional observations from a re-analysis of the deposited data

How the results depend on the processing

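With 2 mice per genotype no p can pass a threshold, so only directions and counts were followed. The 2 globin genes with WT-only H3K27me3 became 1 with a 5 kb window, because Hba-a1 then takes in the Hbq1b peak of KO_401. They became 0 with a fold of at least 8, with all lists cut to an equal number of peaks and with all cut to an equal covered length, settings that take out weak peaks. They were 2 over the gene body, with an overlap of 200 bp, with a −log10 q of at least 10 and without any single mouse. The KO minus WT difference of H3K27me3 in the alpha window was negative under every alternative except the equal covered length (316 bp, with 0 bp near Hba-a1 and Hba-a2). It ranged from -4811 bp with 100 kb flanks to -860.5 bp with an equal number of peaks, and from -4709 to -2850 bp when a mouse was left out. Near Hba-a1 it turned to 129.5 bp with an equal number of peaks, where the sole KO peak was that of Hbq1b in KO_401. For H3K4me3 in the alpha window the difference turned to 133.5 bp with a fold of at least 8. It lay between -2391 and 160 bp when a mouse was left out, the positive value being that without WT_409. Under both of these settings it was 0 bp within 5 kb of Hba-a1 and of Hba-a2. In the beta window the H3K4me3 difference became 0 bp with a fold of at least 8. It lay between -2211 and 0 bp when a mouse was left out. Globin genes with WT-only H3K4me3 numbered 0 to 4 when a mouse was left out, 4 being the count without WT_407. No paired analysis was possible because KO and WT mice share no number, the shared numbers only joining the marks of a mouse. The listed peaks over globin genes had 14 to 29 summit reads, so their presence in a list rests on a few reads.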
